A study of Mus musculus with 16 samples.

Results

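The genes described here are the 9 that build and adjust the hypoxia-inducible factors: the alpha subunits Hif1a, Epas1 and Hif3a, their partner Arnt, the prolyl hydroxylases Egln1, Egln2 and Egln3, the ubiquitin ligase subunit Vhl and the target gene Bnip3. A probe set was taken as a member when the platform annotation gave it exactly 1 of these symbols. That yielded 25 of the 45101 probe sets of the array and 9 of the 18194 genes that had a probe set with 1 symbol. RNA came from interscapular brown adipose tissue (BAT) and from subcutaneous white adipose tissue (sWAT) of untreated male LACA mice on standard chow, whose age is not given in the sources used here. Each tissue had 4 replicates, numbered 1 to 4, and each replicate had 2 arrays, 1 labelled biological and 1 labelled technical. The comparison of BAT with sWAT asked which genes differ in expression between the thermogenic and the storage depot of the same strain. Both tissues were whole dissected depots, in which fewer cells of a type and less RNA per cell cannot be told apart.

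Hypoxia-inducible factors are transcription factors made of an oxygen-labile alpha subunit and the stable subunit ARNT. When oxygen is plentiful, the EGLN enzymes hydroxylate prolines of the alpha subunit, VHL binds the hydroxylated protein, and the ubiquitin ligase that holds VHL marks it for destruction. When oxygen is scarce, the alpha subunit persists, pairs with ARNT and binds a short DNA core near genes of glycolysis, vessel growth and mitochondrial turnover. Egln1, Egln3 and Bnip3 are themselves classic targets, which gives the pathway a feedback arm. Brown fat is densely vascularised and burns fuel at a high rate, and its oxygen use makes the pathway of interest there. RNA does not report on the hydroxylation or the stability of the alpha subunits, so the values below concern transcripts only.

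Promoters of 3 members are printed here because these genes are known targets of the factors and all of them were higher in BAT. The sequences are from RefSeq, build GRCm38.p6, each a window of 300 bases from 250 before the start of the gene to 50 after it, written 5′ to 3′ on the strand of the gene. Capitals mark the HIF core, searched as ACGTG and GCGTG on both strands, so that CACGT and CACGC mark it on the other strand, and CACGTG holds ACGTG on both strands and counts as 2 overlapping matches. The Egln1 window is chr8:124949205-124949504 on the minus strand, that of Egln3 is chr12:54203825-54204124 on the minus strand, and that of Bnip3 is chr7:138909457-138909756 on the minus strand.
Egln1: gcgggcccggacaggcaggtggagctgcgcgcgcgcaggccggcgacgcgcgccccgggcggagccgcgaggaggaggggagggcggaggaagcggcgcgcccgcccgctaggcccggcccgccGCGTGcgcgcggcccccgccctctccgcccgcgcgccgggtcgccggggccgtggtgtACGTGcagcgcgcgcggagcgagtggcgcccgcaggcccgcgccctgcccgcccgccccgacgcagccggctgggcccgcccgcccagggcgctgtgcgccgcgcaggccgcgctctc
Egln3: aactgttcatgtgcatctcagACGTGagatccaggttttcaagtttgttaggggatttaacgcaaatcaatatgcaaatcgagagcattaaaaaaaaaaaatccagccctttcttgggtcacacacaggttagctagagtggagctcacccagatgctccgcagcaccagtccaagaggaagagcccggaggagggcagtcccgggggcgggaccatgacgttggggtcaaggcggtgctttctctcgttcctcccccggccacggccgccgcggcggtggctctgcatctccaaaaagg
Bnip3: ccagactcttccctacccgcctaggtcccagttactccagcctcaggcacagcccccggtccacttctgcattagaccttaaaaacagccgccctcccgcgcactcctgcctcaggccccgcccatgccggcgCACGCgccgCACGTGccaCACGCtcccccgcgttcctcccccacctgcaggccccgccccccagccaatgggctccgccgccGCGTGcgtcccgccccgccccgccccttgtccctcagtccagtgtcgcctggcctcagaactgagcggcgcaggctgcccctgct
The Bnip3 window held 5 matches, the Egln1 window 2 and the Egln3 window 1, at position -229 counted from the start. Their GC contents were 71.7% for Bnip3, 86.0% for Egln1 and 54.7% for Egln3. Windows were found for 8 of the 9 members, and Epas1 was not among them. Egln2 had a window at each of 2 starts, which gave 9 windows, of which 8 held at least 1 match. Hif1a had 3 matches, Hif3a 2, Arnt 1 and the windows of Egln2 6 and 1, while the letters were not found in the window of Vhl. Over all 32851 windows of this length, 43.8% held at least 1 match, 20.6% at least 2 and 1.66% at least 5. A match is a description of the sequence and not a measured binding site.

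The values are on the log2 scale, and for each probe set the authors had taken off its median over the 16 arrays. A value of 1 thus stands for 2-fold above that median, and the values give differences between samples but neither the level of a gene nor the order of levels between genes. A gene is given as the mean of its probe sets with 1 symbol, after the 2 arrays of a replicate were averaged. Differences are BAT minus sWAT with the standard error (SE) of the fit, tested with limma in a fit that holds the replicate number as a block. The p-values were adjusted by Benjamini-Hochberg over all 18194 genes, or over all 45101 probe sets where a single probe set is described, and a gene or probe set is called at an adjusted p under 0.05. The tissues differed widely, so that 21% of all genes were called higher in BAT and 17.5% lower, and the median difference over all genes was 0.15.

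Some properties of the samples bear on every value below. An array of BAT replicate 1, its second, and an array of sWAT replicate 3, its first, had a low 5' signal of Gapdh and Actb, at -3.56 and -4.79 log2 units from the 3' signal relative to the median, against -1.23 to 0.46 on the other arrays. Xist, the RNA of the inactive X chromosome, stood at 5.74 to 6.36 in BAT replicates 1 to 3 and at -0.26 in BAT replicate 4, against -0.27 to -0.11 in sWAT, and 3 Y-linked genes were low in the same BAT replicates. This goes against the male label for BAT replicates 1 to 3, and against both tissues of numbers 1 to 3 coming from 1 animal, as the methods describe. The difference within number 4 is therefore given beside the called members. Differences within numbers 1 to 3, where given, compare samples that may share only the number. Of the tissue markers, 13 of 13 brown adipocyte genes were higher in BAT, and so were 16 of 16 skeletal muscle genes. In sWAT, 11 of 11 B cell and 9 of 9 T cell genes were higher than in BAT. BAT replicate 4 had the lowest mean of the brown adipocyte markers among the BAT samples, 1.33 against 2.36 to 2.53 in the other 3, and the highest mean of the muscle markers, 3.76 against 2.02 to 3.02. The part of muscle, lymphoid cells, sex and array quality in the results was not tested beyond the values given.

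Of the 9 genes, 5 were higher in BAT and 2 were lower. Epas1, Arnt, Egln1, Egln3 and Bnip3 made up the higher group, Hif1a and Vhl the lower one, and Hif3a and Egln2 were not called. The share of members called higher was 55.6%, beside the 21% of all genes, and the share called lower was 22.2%, beside 17.5%. The median difference of the 9 genes was 0.39. By the size of the difference in either direction, 6.6% of all genes exceeded Egln3, 8.22% exceeded Egln1, 15.9% exceeded Epas1 and 18.9% exceeded Bnip3. Vhl, Hif1a and Arnt lay in the middle of the genes, with 35.7%, 43.6% and 45.6% above them.

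**Figure D1:**
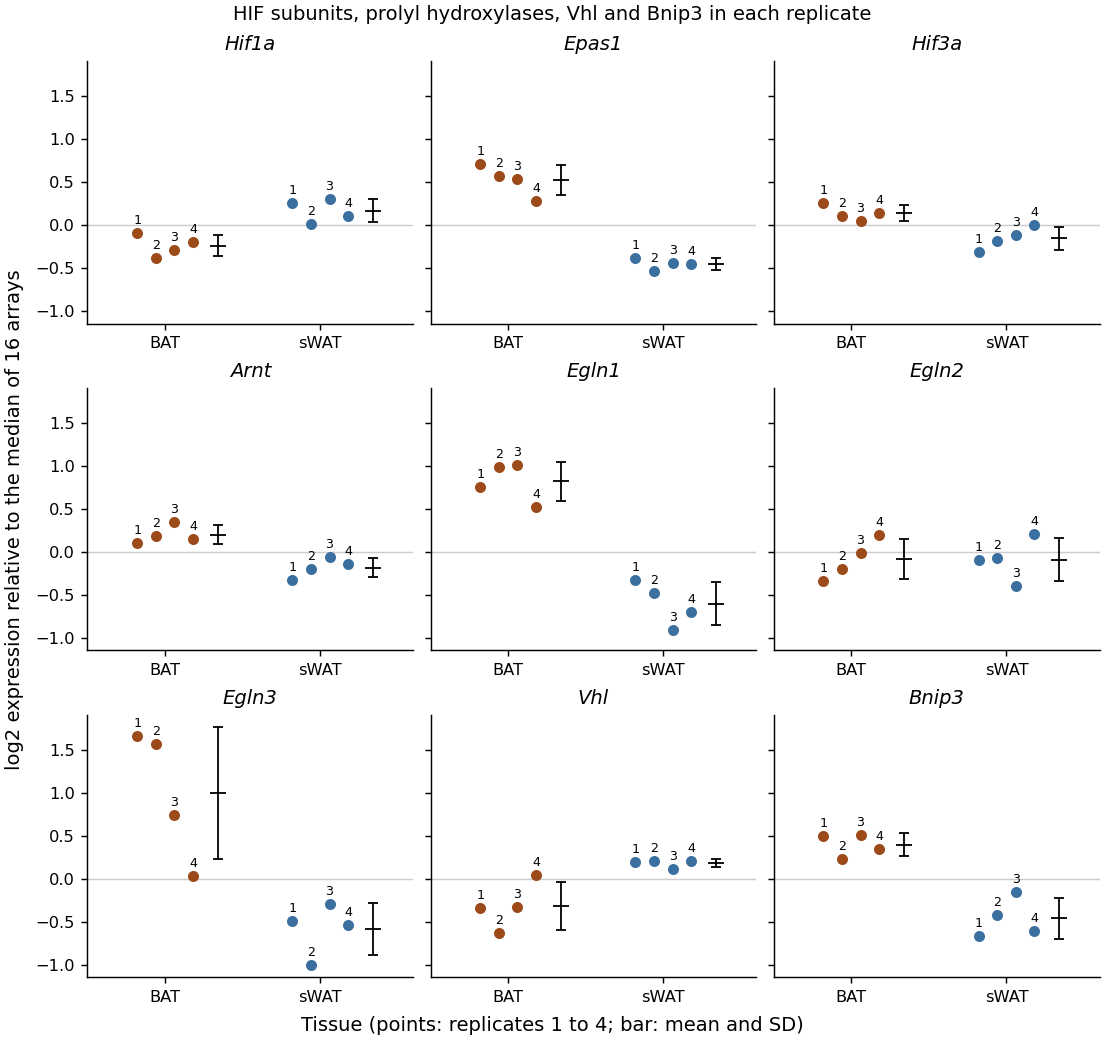
Log2 expression, centred on the median over all 16 arrays, for the 9 genes, with 1 point per replicate (mean of 2 arrays) and the mean and SD of the 4 replicates of each tissue. The BAT points of Epas1, Hif3a, Arnt, Egln1, Egln3 and Bnip3 lie above all sWAT points, those of Hif1a and Vhl lie below, and Egln2 overlaps. Egln3 in BAT is spread between 0.03 and 1.66. The share of all genes with separate groups was not counted.

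The alpha subunits did not move together. Epas1, which encodes HIF-2α and is best known from endothelial cells, had 0.71, 0.57, 0.54 and 0.28 in BAT replicates 1 to 4, against -0.38, -0.54, -0.44 and -0.46 in sWAT replicates 1 to 4. Every BAT value was above every sWAT value, and BAT replicate 4 was the lowest of its group. Epas1 averaged 0.52 ± 0.18 in BAT and -0.45 ± 0.07 in sWAT (SD, n = 4 each). The difference was 0.98 ± 0.12 (SE), or 1.97-fold, with an adjusted p of 0.00103, and within number 4 it was 0.73. Endothelial markers stand beside it as a whole list: 2 of 14 (14.3%) were called higher in BAT, beside 21% of all genes. Of the same markers 0 were called lower, beside 17.5% of all genes. The median difference of the list was 0.35, beside 0.15 over all genes. The mean of that list ran over -0.29 to 0.50 in BAT and -0.73 to 0.22 in sWAT, and the groups overlapped. Whether endothelial content contributed to the Epas1 difference was not tested.

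Hif1a, the alpha subunit found in nearly all cell types, went the other way. It had -0.09, -0.38, -0.29 and -0.19 in BAT replicates 1 to 4, against 0.26, 0.01, 0.30 and 0.10 in sWAT. The groups did not overlap, though BAT replicate 1 and sWAT replicate 2 came within 0.10 of each other. The gene averaged -0.24 ± 0.12 in BAT and 0.17 ± 0.14 in sWAT (SD, n = 4 each). Its difference was -0.41 ± 0.12, or 1.33-fold lower in BAT, with an adjusted p of 0.0311, and within number 4 it was -0.30. Leaving out any 1 of the 4 replicate numbers ended the call, with differences of -0.45 to -0.35 and adjusted p-values of 0.0614 to 0.124. Hif1a is abundant in leukocytes, and markers of these cells were mostly lower in BAT as well. In BAT the mean of the 11 B cell markers lay between -2.14 and -1.68 and that of the 9 T cell markers between -1.81 and -1.03, against 1.70 to 2.39 and 1.40 to 2.08 in sWAT. Of 12 macrophage markers, 8 (66.7%) were lower in BAT, beside 17.5% of all genes, and 1 (8.33%) was higher, beside 21%. The means of that list were -1.40 to 0.24 in BAT and -0.02 to 0.79 in sWAT. BAT replicate 1 had the highest Hif1a value of its group, but its 2 arrays read -0.36 and 0.18. The second is the array of low 5' signal, and the first lay below the values of BAT replicates 3 and 4. The same replicate also had the lowest T cell and macrophage means, -1.81 and -1.40, and the highest B cell mean, -1.68. The part of leukocytes in the Hif1a difference was not tested.

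Hif3a encodes an alpha subunit whose splice forms can act as inhibitors of the other factors. It had 0.26, 0.11, 0.04 and 0.14 in BAT, against -0.31, -0.19, -0.11 and -0.0017 in sWAT. All 4 BAT values lay above the sWAT values, but the gap between the nearest ones was small. The difference of 0.29 ± 0.13 had an adjusted p of 0.109, with a 95% confidence interval of -0.0089 to 0.59. Hif3a was therefore not called, and without the replicate block it was, at an adjusted p of 0.0379.

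Arnt, the shared partner of all alpha subunits, was modestly higher in BAT. It had 0.11, 0.19, 0.35 and 0.15 in BAT replicates 1 to 4 and -0.33, -0.20, -0.06 and -0.15 in sWAT. The groups were separate, and the 4 within-number differences lay between 0.30 and 0.43, with the smallest, 0.30, in number 4. The fitted difference was 0.39 ± 0.11, or 1.31-fold, with an adjusted p of 0.0313. As for Hif1a, leaving out any 1 of the replicate numbers ended the call for Arnt, with differences of 0.37 to 0.41 and adjusted p-values of 0.0613 to 0.136.

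Among the hydroxylases, Egln1 and Egln3 were higher in BAT and Egln2 was not called. Egln1 is the main enzyme that sets the steady-state level of HIF-1α in normal oxygen. Its values were 0.76, 0.99, 1.01 and 0.52 in BAT, against -0.33, -0.48, -0.90 and -0.70 in sWAT. The lowest BAT sample, replicate 4, was still 0.85 above the highest sWAT sample. Egln1 averaged 0.82 ± 0.23 in BAT and -0.61 ± 0.25 in sWAT (SD, n = 4 each). The difference was 1.42 ± 0.16, or 2.69-fold, with an adjusted p of 6.79e-04 and a confidence interval of 1.04 to 1.81, and within number 4 it was 1.22. The largest gap between the 2 arrays of a replicate over all 9 genes, 1.13, was in Egln1. In BAT replicate 1 the 2 arrays read 1.32 and 0.19, the lower being the array of low 5' signal, and in sWAT replicate 3 they read -1.23 on that array and -0.58 on the other. Without these arrays the difference was 1.48 ± 0.11.

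Egln3, a hydroxylase that hypoxia induces strongly, had the largest difference of the 9 genes and the widest spread. It stood at 1.66, 1.57, 0.74 and 0.03 in BAT replicates 1 to 4, against -0.49, -1.01, -0.30 and -0.54 in sWAT. BAT replicates 1 and 2 were far above the rest, and BAT replicate 4 lay only 0.32 above the highest sWAT value. The means were 0.999 ± 0.77 in BAT and -0.58 ± 0.30 in sWAT (SD, n = 4 each). The difference was 1.58 ± 0.33, or 3.00-fold, with an adjusted p of 0.00887 and a confidence interval of 0.81 to 2.36. Within numbers 1 to 4 it was 2.15, 2.58, 1.04 and 0.56. The 2 arrays of BAT replicate 1 read 1.27 and 2.05, and those of sWAT replicate 3 read 0.19 and -0.78, the first of these being the array of low 5' signal. In BAT replicates 1 to 4 the muscle markers had means of 2.10, 3.02, 2.02 and 3.76, and their part in the Egln3 difference was not tested. With the paired test of the methods Egln3 was not called, at an adjusted p of 0.113.

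Egln2, the hydroxylase induced by estrogen in other settings, was measured by 1 probe set. It had -0.34, -0.20, -0.01 and 0.20 in BAT, against -0.09, -0.08, -0.40 and 0.20 in sWAT. The groups overlapped along their whole length. In BAT replicate 1, the lowest of its group, the 2 arrays read 0.04 and -0.72. In sWAT replicate 3, also the lowest, they read -0.89 and 0.10. The lower reading came from the array of low 5' signal in both replicates. The difference was 0.0025 ± 0.14 with an adjusted p of 0.989, and the confidence interval of -0.33 to 0.34 is the range of differences these 4 replicates leave.

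Vhl, which recognises the hydroxylated alpha subunit, was lower in BAT. Its values were -0.34, -0.64, -0.34 and 0.04 in BAT replicates 1 to 4, against 0.19, 0.20, 0.11 and 0.21 in sWAT. The groups were separate, but BAT replicate 4 lay only 0.08 below the lowest sWAT value. Vhl averaged -0.32 ± 0.28 in BAT and 0.18 ± 0.04 in sWAT (SD, n = 4 each). The difference was -0.50 ± 0.14, or 1.41-fold lower, with an adjusted p of 0.0302, and within number 4 it was -0.17. Leaving out replicate numbers 1, 2 or 3 ended the call, with differences of -0.49, -0.38 and -0.51, and leaving out number 4 kept it at -0.61.

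Bnip3 encodes a receptor on the outer mitochondrial membrane that binds autophagy proteins and marks mitochondria for removal. It had 0.50, 0.23, 0.50 and 0.35 in BAT, against -0.67, -0.43, -0.15 and -0.61 in sWAT. The groups were separate, and the gene was measured by 1 probe set. Bnip3 averaged 0.39 ± 0.13 in BAT and -0.46 ± 0.23 in sWAT (SD, n = 4 each). The difference was 0.86 ± 0.14, or 1.81-fold, with an adjusted p of 0.0029, and within number 4 it was 0.96. Unlike Egln3, whose difference was smallest in number 4, Bnip3 had its smallest differences in numbers 2 and 3, at 0.65 each. In these 2 numbers the tissues may not come from 1 animal.

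The mean over a gene hides how its probe sets differed. Of the 25 probe sets, 9 were called higher in BAT, beside 15.1% of all probe sets, 3 were called lower, beside 17.3%, and 13 were not called. Where 2 probe sets of a gene disagreed, the array gives no means to tell isoforms from probe quality, and the positions of the probes were not used here.

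For Hif1a, 2 of 4 probe sets were called, both lower in BAT. Probe set 1427418_a_at had -0.66, -0.92, -0.78 and -0.48 in BAT, against 0.60, 0.34, 0.62 and 0.26 in sWAT, a 2.24-fold lower value in BAT (adjusted p = 0.00168). Probe set 1416035_at was 1.69-fold lower (adjusted p = 0.00675). The other 2 were not called, with 1431981_at at 0.29 ± 0.17 and 1448183_a_at at -0.00064 ± 0.13. The Hif1a difference of -0.41 is thus an average over probe sets that ranged between -1.17 and 0.29.

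Epas1 and Vhl each had a pair of probe sets of unequal response. Epas1 1449888_at had 1.07, 1.02, 0.92 and 0.38 in BAT, against -0.67, -0.88, -0.66 and -0.66 in sWAT, which is 2.95-fold higher (adjusted p = 7.67e-04). Epas1 1435436_at was separate between the tissues as well, with a smaller difference of 0.39 ± 0.13 that just missed the threshold (adjusted p = 0.051). Vhl 1434708_at had -0.94, -0.90, -0.39 and -0.23 in BAT, against 0.51, 0.41, 0.38 and 0.30 in sWAT, or 2.01-fold lower (adjusted p = 0.00658). Vhl 1421071_at overlapped between the tissues, at 0.01 ± 0.17 (adjusted p = 0.951).

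Both probe sets of Egln1 and both of Egln3 were called higher in BAT. Those of Egln1 differed by 3.14-fold (1451110_at) and 2.29-fold (1423785_at), and those of Egln3 by 3.998-fold (1418649_at) and 2.25-fold (1418648_at). Egln3 1418649_at had 2.08, 2.04, 1.14 and 0.05 in BAT and -0.54, -1.08, -0.47 and -0.59 in sWAT, and so showed the same order of BAT replicates as the gene mean. For Arnt, 1421721_a_at at 1.39-fold and 1425064_at at 1.44-fold were called, and the other 3 had differences of 0.22 to 0.47. Of the 6 probe sets of Hif3a only 1446708_at was called, at 1.45-fold (adjusted p = 0.0479), and the differences of the other 5 lay between 0.02 and 0.47.

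**Figure D2:**
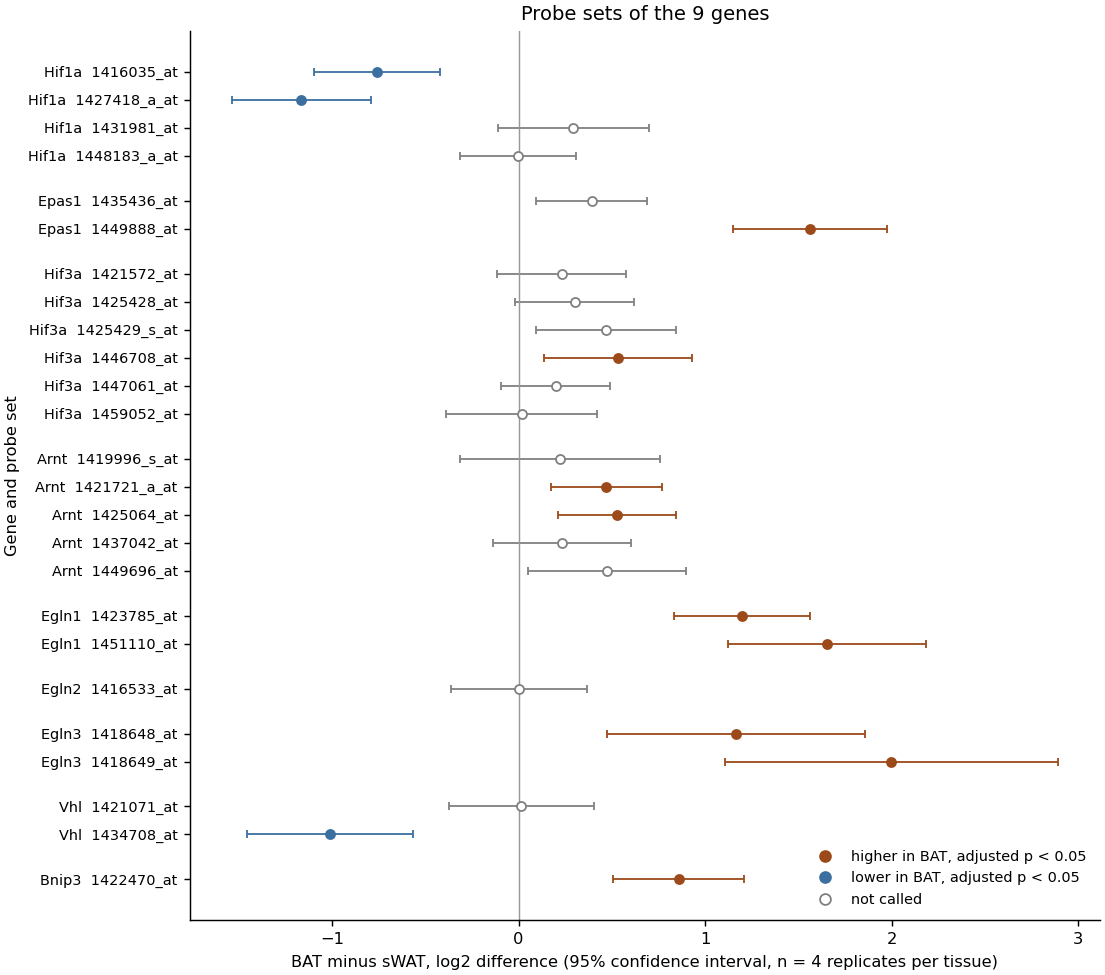
Log2 difference BAT minus sWAT for each of the 25 probe sets, with its 95% confidence interval (n = 4 replicates per tissue) and filled points for an adjusted p under 0.05. Both probe sets of Egln1 and of Egln3 lie to the right. Hif1a and Vhl each mix values at -0.76 or below with a probe set near 0, and a further Hif1a probe set lies at 0.29.

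Genes with a pattern like that of a member were sought over the 8 replicate means, as a description with no test. The 8 points are 4 samples of each tissue, so that any pair of genes that differ between the tissues correlates, and the points share the arrays. The genes most like Egln3, the largest difference upward among the members, were P2rx1 (Pearson r = 0.9966), Bhlhe40 (r = 0.9917) and Gm29811 (r = 0.9901). An r compares shape and not size, and their differences were 0.26 ± 0.12, 1.83 ± 0.31 and 0.49 ± 0.14, beside 1.58 for Egln3. Those most like Vhl, the largest downward, were Htra3 (r = 0.9915), Nudt16 (r = 0.9901) and Dubr (r = 0.9858). These 3 had differences of -0.43 ± 0.14, -0.62 ± 0.15 and -1.45 ± 0.32, beside -0.50 for Vhl.

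Beside the 9 genes, 5 lists of further genes of the pathway were read from the same fit, with 94 genes measured of 108 listed. Of these, 30 (31.9%) were higher in BAT, beside 21% of all genes, and 13 (13.8%) were lower, beside 17.5%. The median difference was 0.19, beside 0.15 over all genes. Of the 5 lists, the glycolysis targets had the largest median, 0.85, and the regulators of the factors the lowest, -0.08.

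Of 20 regulators and partners of the factors, 6 were lower in BAT, 1 was higher and 13 were not called. That is 30% lower, beside 17.5% of all genes, 5% higher, beside 21%, and 35% called in either direction, beside 38.4%. Vbp1, a prefoldin subunit that binds the VHL protein, had the largest downward difference at -1.11 ± 0.16 (adjusted p = 0.00177). Cited2, a feedback inhibitor that competes with the alpha subunits for the coactivators Ep300 and Crebbp, was at -1.08 ± 0.19 (adjusted p = 0.00488). Rbx1, the RING subunit of the ligase that holds VHL, was at -0.81 ± 0.16 (adjusted p = 0.00675). The 1 gene called higher was Rwdd3, an enhancer of sumoylation that stabilises HIF-1α, at 1.14 ± 0.12 (adjusted p = 5.24e-04). Its BAT values were 0.76, 0.54, 0.82 and 0.20, against -0.54, -0.38, -0.39 and -0.92 in sWAT. Ing4, a chromatin protein recruited by EGLN1, was nearest to 0 at -0.03 ± 0.17.

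Of 18 glycolysis targets, 11 (61.1%) were higher in BAT, beside 21% of all genes, 3 (16.7%) were lower, beside 17.5%, and 4 were not called. With the paired test of the methods 4 were called higher, beside 1830 of all 18194 genes in place of 3812. Hk2, the insulin-sensitive hexokinase, led with 1.98, 2.14, 1.35 and 0.45 in BAT, against -1.33, -0.42, -1.07 and -1.41 in sWAT. The difference was 2.54 ± 0.22 (adjusted p = 2.52e-04), and BAT replicate 4 was again the lowest of its group. Pfkl, the liver-type phosphofructokinase, and Pkm, which makes pyruvate, followed at 1.45 ± 0.23 (adjusted p = 0.00267) and 1.43 ± 0.33 (adjusted p = 0.0137). Pfkp, the platelet-type phosphofructokinase, was nearest to 0 at 0.11 ± 0.22. The 3 genes called lower were 2 glucose transporters and an enolase. Slc2a1, the widespread basal glucose transporter, had -0.80, -0.64, -0.44 and -0.66 in BAT, against 0.58, 0.45, 0.53 and 0.28 in sWAT, a difference of -1.09 ± 0.13 (adjusted p = 7.5e-04). Slc2a3, a high-affinity transporter of neurons and leukocytes, was at -1.10 ± 0.13 (adjusted p = 9.35e-04), and Eno2, the neuronal enolase, at -1.01 ± 0.19 (adjusted p = 0.00535). Muscle shares most of the glycolytic enzymes, and all 16 muscle markers were higher in BAT, with list means of 2.02 to 3.76 in BAT and -1.83 to -1.49 in sWAT. The part of muscle in the glycolysis values was not tested.

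Of 14 targets in vessels and oxygen delivery, 5 were higher (35.7%, beside 21% of all genes), 1 was lower (7.14%, beside 17.5%) and 8 were not called. Vegfa, the main growth factor for vessels, had 1.59, 1.64, 0.996 and 0.36 in BAT, against -0.92, -0.77, -0.45 and -1.35 in sWAT. Its difference was 2.02 ± 0.20, or 4.05-fold (adjusted p = 4.25e-04), with no overlap. Flt1, a receptor for VEGF, was at 1.04 ± 0.18 (adjusted p = 0.00387), and Tfrc, which takes up transferrin-bound iron, at 0.99 ± 0.11 (adjusted p = 7.12e-04). Cxcl12, a chemokine of stromal cells, was lower in BAT at -1.06 ± 0.13 (adjusted p = 9.27e-04). Nos2, the inducible nitric oxide synthase, was at 0.03 ± 0.13. Kdr and Tek of this list are also endothelial markers here.

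The targets in stress, matrix and acid balance were mixed, with 7 of 26 higher, 3 lower, 16 not called and a median of 0.13. That is 26.9% higher, beside 21% of all genes, and 11.5% lower, beside 17.5%. The share called in either direction, 38.5%, was near the 38.4% of all genes, and the median was near that of all genes. Bhlhe40, a transcriptional repressor that is among the genes most like Egln3, had 1.996, 1.87, 0.83 and 0.13 in BAT, against -0.42, -0.87, -0.38 and -0.84 in sWAT, a difference of 1.83 ± 0.31 (adjusted p = 0.00365). Higd1a, a mitochondrial protein of the respiratory chain, was at 1.12 ± 0.20 (adjusted p = 0.00518) and Selenbp1, a selenium-binding oxidase, at 0.79 ± 0.22 (adjusted p = 0.0258). For both Higd1a and Selenbp1 the tissue groups overlapped. The downward genes included some that hypoxia readily induces. Ankrd37, an ankyrin-repeat protein, had -0.94, -1.08, -0.59 and -0.83 in BAT, against 0.96, 0.40, 1.33 and 0.83 in sWAT, a difference of -1.74 ± 0.13 (adjusted p = 1.3e-04). Ddit4, an inhibitor of mTORC1, was at -1.43 ± 0.37 (adjusted p = 0.0229) with overlapping groups, and Kdm3a, a histone demethylase, at -1.06 ± 0.20 (adjusted p = 0.00559). Kdm4b, a related demethylase, was at 0.01 ± 0.12.

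Mitophagy receptors and adaptors, the group in which Bnip3 acts, had 6 of 16 higher in BAT, 0 lower and 10 not called. That is 37.5% higher, beside 21% of all genes, and 0% lower, beside 17.5%. The share called in either direction was 37.5%, near the 38.4% of all genes. Pink1, the kinase that flags damaged mitochondria, had 0.95, 0.82, 0.96 and 0.21 in BAT, against -1.21, -0.23, -0.69 and -1.64 in sWAT. The difference was 1.68 ± 0.19, or 3.20-fold (adjusted p = 6.4e-04). Bcl2l13, a receptor on the outer mitochondrial membrane like Bnip3, was at 1.24 ± 0.18 (adjusted p = 0.00203). Map1lc3a, a protein of the autophagosome membrane, was at 0.89 ± 0.22 (adjusted p = 0.0196) with overlapping groups. Calcoco2, a cargo adaptor, was at -0.01 ± 0.13.

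**Figure D3:**
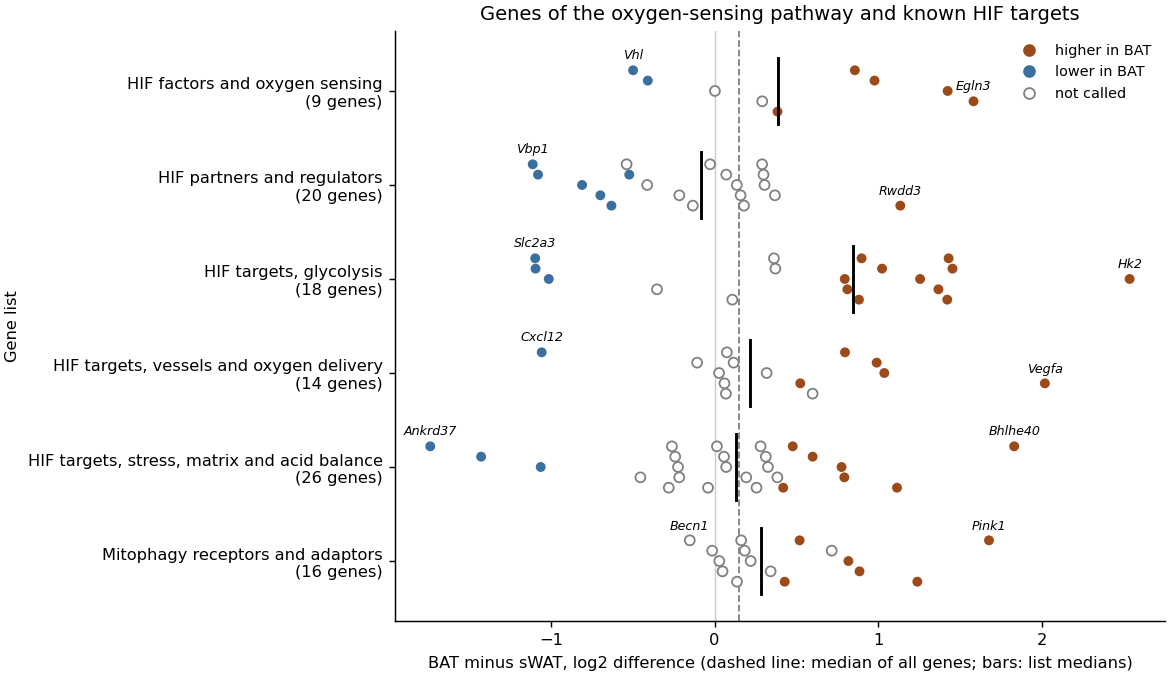
Log2 difference BAT minus sWAT of every measured gene in the 9 members and the 5 pathway lists, with filled points for an adjusted p under 0.05, a bar at the median of each list and a dashed line at the median of all genes (0.15). The glycolysis list has its median at 0.85 with 3 genes near -1, and the regulators have theirs at -0.08.

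BAT replicate 4 was at the edge of its group for several of the named genes. It was the lowest BAT value for Epas1, Egln1, Egln3, Hk2, Vegfa, Bhlhe40 and Pink1, and the highest for Vhl, while Hif1a, Arnt and Bnip3 in it lay inside the range of the other 3 BAT replicates. Selenbp1 and Map1lc3a, both called higher in BAT, went the other way, with their highest BAT value in replicate 4, at 1.14 and 0.98. The same replicate had the lowest mean of the brown adipocyte markers and the highest of the muscle markers, and it was the 1 BAT replicate whose Xist and Y-linked values were like those of sWAT. These properties cannot be told apart with 1 such sample.

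**Figure D4:**
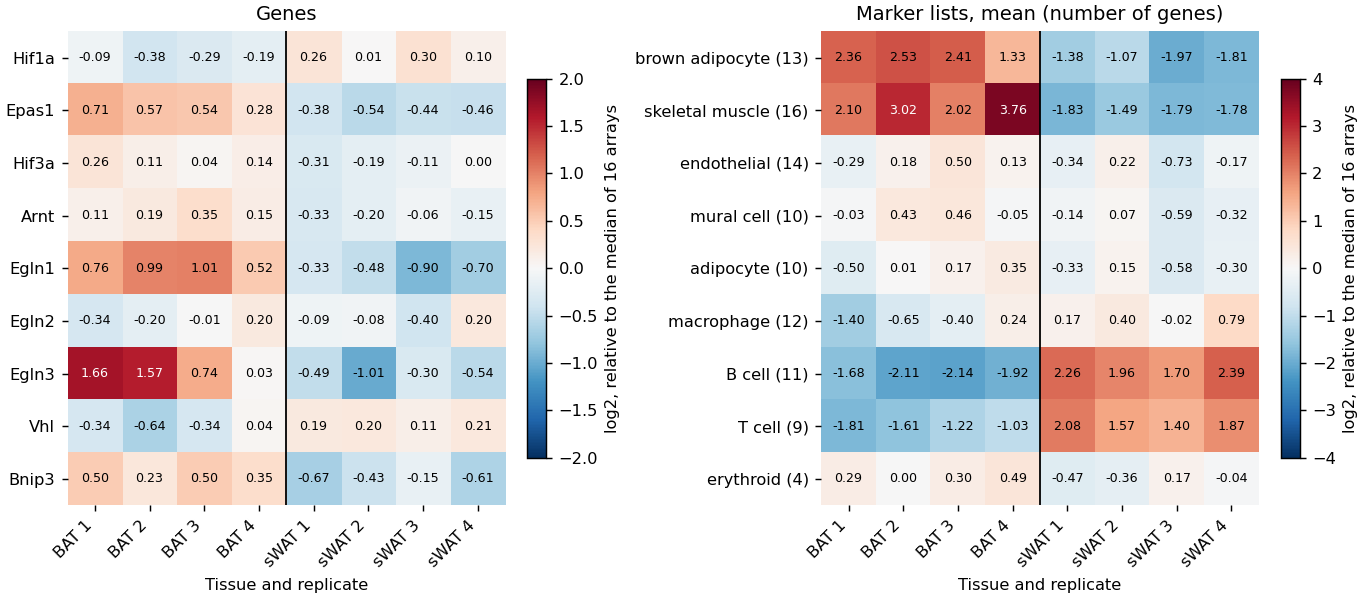
Log2 values, centred on the median over all 16 arrays, for the 9 genes (left) and the means of 9 marker lists (right, number of genes in brackets) in each replicate, with BAT left of the line and sWAT right of it. Egln3 in BAT runs over 0.03 to 1.66, with its lowest value in replicate 4, where the brown adipocyte mean is 1.33 and the muscle mean 3.76.

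The calls of the members differed in how well they held when the processing changed. Epas1, Egln1 and Bnip3 were called in 14 of 14 alternatives, with differences of 0.90 to 1.09, 1.22 to 1.63 and 0.75 to 0.98. Egln3 was called in 13 of 14, with 1.25 to 1.92. Hif1a and Arnt were called in 7 of 13, since they were not among the more variable genes over which 1 alternative adjusted, and Vhl in 8 of 14. All 3 stayed on the same side of 0 in these alternatives. The median over probe sets could not change the differences of Epas1, Egln1, Egln2, Egln3, Vhl and Bnip3, which have 1 or 2 probe sets. The more variable genes were picked by their spread over all arrays, which a tissue difference itself widens.

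**Figure D5:**
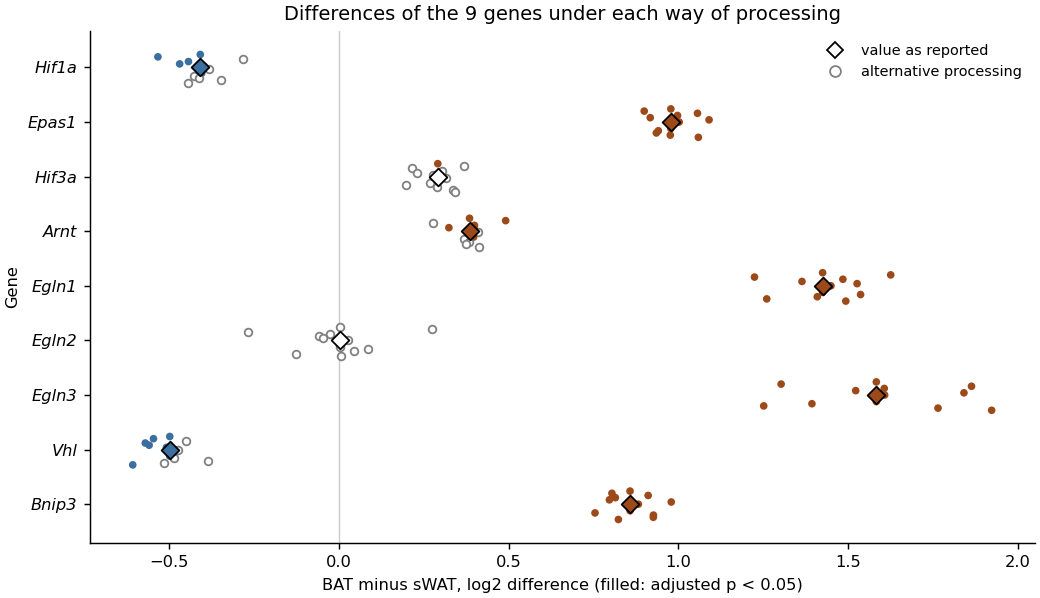
Log2 difference BAT minus sWAT of each gene as reported (diamond) and under each alternative processing (circles, some hidden under the diamond where the difference did not change), filled where the adjusted p was under 0.05. Epas1, Egln1 and Bnip3 are filled throughout between 0.75 and 1.63, and Egln2 spans 0 from -0.27 to 0.27.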

How the data were processed

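RNA of 16 Affymetrix Mouse Genome arrays was analysed, 8 per tissue, as 4 replicates with 2 arrays each. Values were deposited as log2. The authors used RMA in GeneSpring, with quantile normalization, and set the baseline of each probe set to its median over the samples. Centred values allow no filter on dim probes, and precision is limited by the number of replicates, 4 per tissue.

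After averaging the arrays of each replicate, the difference BAT minus sWAT was estimated with limma 3.58.1 under R 4.3.3 (lmFit, then eBayes) over all 45101 probe sets, with Benjamini-Hochberg adjustment. Genes were the mean of their probe sets with 1 symbol in the platform annotation (34958 probe sets, 18194 genes), and 932 probe sets with several symbols and 9211 with none were left out of the gene fit. The fit was tested on simulated data. The replicate number entered as a block because the methods compare the tissues in pairs and take both from each animal. The labels give only equal numbers, and the deviations of samples with the same number correlated at -0.148, 0.0774, -0.336 and 0.26 for numbers 1 to 4. Where samples do not come from separate animals, p-values measure only the spread between these samples.

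Members, gene lists and tests were chosen with earlier results of these data known. The text names all members, and of each pathway list up to 3 called genes in each direction, by size of the difference, and the gene nearest to 0. Markers are given as counts and means only. Alternatives tried were a fit with no block, only the first or only the second arrays, the data without the 2 arrays of low 5' signal, re-centred, re-quantiled or scaled to Gapdh and Actb, the paired test of the methods, adjustment over the more variable genes, the median over probe sets, and each replicate number left out. Figures were drawn with matplotlib 3.10.9.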

Additional observations from a re-analysis of the deposited data

Results flagged for a closer look

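In 5 of 120 groups of 4 replicates tested, 1 sample lay far from the other 3, and chance alone gives about 1 in 20. Of the genes as a whole, Vhl in sWAT replicate 3 had 0.113, against 0.193 to 0.207 in the other sWAT replicates. Probe set 1416035_at of Hif1a had 0.654 in sWAT replicate 3, against 0.240 to 0.269 in the others. Probe set 1437042_at of Arnt had 0.504 there, against -0.181 to -0.155. Pkm had -1.20 in sWAT replicate 3, against -0.236 to -0.042. The fifth, probe set 1449888_at of Epas1, had -0.875 in sWAT replicate 2, against -0.667 to -0.658. Among them, 4 of the 5 are in sWAT replicate 3, 1 of whose 2 arrays had low 5' signal. That array and the other one of the replicate read 1.04 and 0.27 for Hif1a 1416035_at, 0.82 and 0.19 for Arnt 1437042_at and 0.02 and 0.21 for Vhl.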

How the results depend on the processing

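Without the replicate block 8 member genes were called in place of 7, the added one being Hif3a (adjusted p = 0.0379), with 15 member probe sets in place of 12 and 18432 probe sets in place of 14605. The block changed no other call of a member gene. Second arrays alone, and arrays scaled to the 3' probe sets of Gapdh and Actb, left 4 member genes called, and that scaling left 8927 probe sets. The paired test of the methods called 6 member probe sets in place of 12, 5116 probe sets in all and 18 pathway list genes in place of 43. Without 1 replicate number, 4 to 5 member genes, 8 to 10 member probe sets, 34 to 39 pathway list genes and 9764 to 14069 probe sets were called, with fewer samples in each fit. The 2 members called lower, Hif1a and Vhl, became 0 on second arrays, with the scaling to Gapdh and Actb and without number 1, 2 or 3, and 1 with the paired test, without number 4 or adjusted over the more variable genes. Scaling to Gapdh and Actb left 1885 genes higher and 1886 lower in place of 3812 and 3177, and the paired test called 1830 and 1737. Of the lists, the regulators called higher were 4 without the block, 2 to 3 on either set of arrays, with quantile normalization repeated, without the arrays of low 5' signal or by the paired test, in place of 1. Stress, matrix and acid targets called higher were 3 to 4 in place of 7 on second arrays, re-centred, scaled or without number 2, 3 or 4. The paired test called 4 glycolysis genes higher in place of 11, 2 mitophagy genes in place of 6 and 2 vessel genes in place of 5, with 2 regulators lower in place of 6. The causes of the other changes were not tested.

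Values near 0 in the report changed sign. Egln2, with its 1 probe set 1416533_at, was at -0.27 on second arrays, -0.026 without the arrays of low 5' signal, -0.058 re-centred, -0.046 with quantile normalization repeated and -0.13 to 0.086 without 1 replicate number. Hif1a 1448183_a_at was at 0.074 on first arrays, 0.024 scaled to Gapdh and Actb and -0.031 to 0.065 without 1 number. Hif3a 1459052_at was at -0.034 on first arrays, -0.043 re-centred, -0.061 re-quantiled and -0.13 to 0.16 without 1 number. Arnt 1419996_s_at was at -0.26 on second arrays and -0.045 to 0.39 without 1 number. Vhl 1421071_at was at -0.11 without the arrays of low 5' signal, -0.046 re-centred, -0.079 re-quantiled and -0.11 to 0.14 without 1 number. On second arrays Ing4 was at 0.070, Pfkp at -0.042, Kdm4b at -0.081 and Calcoco2 at 0.044. Re-centred, Nos2 was at -0.033 and Kdm4b at -0.046, and re-quantiled at -0.014 and -0.021. Calcoco2 was at 0.0099 scaled to Gapdh and Actb. Without 1 number Ing4 ran over -0.21 to 0.090, Pfkp -0.027 to 0.39, Nos2 -0.050 to 0.11, Kdm4b -0.048 to 0.072 and Calcoco2 -0.11 to 0.044. None of these was called.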
